A study of Atriplex prostrata and Atriplex rosea and Atriplex prostrata x Atriplex rosea with 87 samples.

Results

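Histone genes are 33 of the 21971 Arabidopsis loci used from a count table of developing leaves of 2 saltbush species, Atriplex prostrata, a C3 plant, and Atriplex rosea, a C4 plant. They are the loci whose short description in the table names a histone protein or the histone superfamily, with enzymes that methylate, demethylate or acetylate histones left out. Leaves of both species were harvested at matched values of the leaf plastochron index, a measure of developmental age, from triplicate plants kept under 17 h days, with 27 °C in the light and 22 °C in the dark. Whole leaves were taken at 1 mm (index -1.3), at 5 mm (index -0.7) and at 7.5 mm (index -0.35, with leaf 9 and leaf 10 sampled separately), and leaves longer than 10 mm were cut into a bottom and a top part. The parts came from 15 mm and 18 mm leaves of A. prostrata and from 11 mm and 13 mm leaves of A. rosea, at index 0.3 and 0.8 in both species. This gave 16 groups of 3 libraries, 8 groups a species, with no treatment or transgene in any of them. The same index was reached at a smaller length in A. rosea, so leaf length and species cannot be told apart in the later groups.

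DNA in the nucleus is wrapped around cores built of the histones H2A, H2B, H3 and H4, and linker histone H1 sits on the DNA between cores. Bulk histone protein is made in S phase, when the copied DNA has to be packed, so in a growing leaf histone mRNA is known mainly as a product of dividing and endoreduplicating cells. Replacement variants are made outside S phase as well: H3.3 is put into transcribed chromatin, H2A.Z is exchanged in around gene starts, and CENH3 marks centromeres. In plants the mRNAs of replication-dependent histones carry poly(A) tails.

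By the protein domains given in the table, 8 members were H2A, 6 H2B, 9 H3, 6 H4 and 1 H1, and 3 had no histone family domain. Those 3 are LEC1 (AT1G21970), a subunit of an embryo transcription factor, and AT5G19490 and AT5G50930. The H2A loci divide into replication-dependent H2A (HTA2 and HTA10), H2A.W (HTA6, HTA7 and HTA12), a variant of plant heterochromatin, and H2A.Z (HTA4, HTA8 and HTA9). The H3 loci divide into H3.1 type, the replication-dependent form (AT1G09200, AT3G27360 and AT5G10390), H3.3 type (AT4G40030 and AT5G10980), CENH3 (HTR12, AT1G01370) and 3 others, among them MGH3 (AT1G19890), which in Arabidopsis is an H3 of the male gamete. These subclasses were assigned from the Arabidopsis locus identifiers. Atriplex reads were counted on Arabidopsis loci, and members of a histone family are nearly identical in sequence, so the split of reads among loci of a family is uncertain, and a locus stands for whichever Atriplex genes its reads came from. No 2 members had the same counts in all libraries.

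At least 1 read fell on each of the 33 loci, and 29 passed the filter on low counts and were tested. The 4 that were not tested included HIS1-3, the only H1 locus among the members, with 20 reads in 17 of the 48 libraries. The others were the H2B locus AT1G08170 with 151 reads, LEC1 with 162 reads and AT5G19490 with 5 reads. Gene lengths were not used, so levels are compared between libraries and not between loci.

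Library totals ran from 8028511 to 12387428 reads in A. prostrata and from 7647689 to 15360702 in A. rosea, and the members took 0.379% to 3.93% of them. Levels are read counts scaled to a common library size (CPM) with factors from the trimmed mean of M values. Against unadjusted library totals, the median log2 change of all 14779 tested loci with leaf age moved from -0.03 to -0.58 in A. prostrata and from -0.07 to -0.75 in A. rosea, so every age change below is relative to the bulk of loci. The leaf markers RBCS1A, a Rubisco small subunit, and RCA, Rubisco activase, together rose from 2764 to 78832 CPM between 1 mm leaves and 18 mm tops in A. prostrata and from 3448 to 21859 CPM between 1 mm leaves and 13 mm tops in A. rosea. The third leaf marker on the list, LHCB1.3, was not in the rows used here.

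Some libraries stood close together or apart. Replicate 1 of the 15 mm bottom and replicate 1 of the 15 mm top of A. prostrata were the closest of 1128 pairs of libraries, with a chi-square over all loci of 1.14 per degree of freedom, where 1 is the value that sampling noise alone gives; the median over 48 replicate pairs was 15.25. Replicates 1 and 2 of 1 mm A. prostrata leaves were the closest pair of replicates, at 1.2. Whether they are independent was not tested, so the SD, SE and p-values that rest on this 1 mm group may be too small. Summed over the 30 loci with a histone family domain, the level was 43728 CPM in the 15 mm bottom replicate 3 and 42140 CPM in the 18 mm bottom replicate 2 of A. prostrata, against at most 31947 CPM in any other library. In A. rosea the 13 mm bottom replicate 3 had 7885 CPM, against 14227 and 21201 CPM in the other two. Whether the 15 mm bottom and top libraries of replicate 1 are separate samples, as labelled, is in doubt, so the 15 mm levels and the comparison of parts in A. prostrata carry that doubt. Some counts of calls and summed levels are also given without some of these libraries. Leaf 9 and leaf 10 columns of the same number were also close. They were at 3.1, 2.18 and 1.8 for numbers 1, 2 and 3 in A. prostrata, and at 2.84 for number 2 in A. rosea. The fit took them as independent libraries, and whether they are was not tested. The SE and p-values of the mean over stages may therefore be too small.

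Histone RNA stayed at about its 1 mm level through the whole-leaf stages of both species and then took different courses. In A. prostrata the summed level was 27374 ± 1126 CPM at 1 mm (SD, n = 3, as for all group means) and 30611 ± 1173 CPM in 7.5 mm leaf 10. It was 32187 ± 9075 CPM in the 18 mm bottoms and 17690 ± 3824 CPM in the 18 mm tops, with single libraries at 24372, 42140 and 30049 CPM in the bottoms and at 19221, 20512 and 13338 CPM in the tops. All 3 tops were below every 1 mm library, and the bottoms lay on both sides of them. In A. rosea the summed level was 22881 ± 987 CPM at 1 mm and 24397 ± 3187 CPM in 7.5 mm leaf 10. It was 15097 ± 2874 CPM in the 11 mm bottoms, 14438 ± 6661 CPM in the 13 mm bottoms and 7868 ± 1842 CPM in the 13 mm tops. The 13 mm tops, at 8507, 5791 and 9305 CPM, were below all libraries of every earlier stage. The sums carry no test, and in whole tissue fewer cells that make histones and less histone RNA per cell cannot be told apart.

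**Figure D1:**
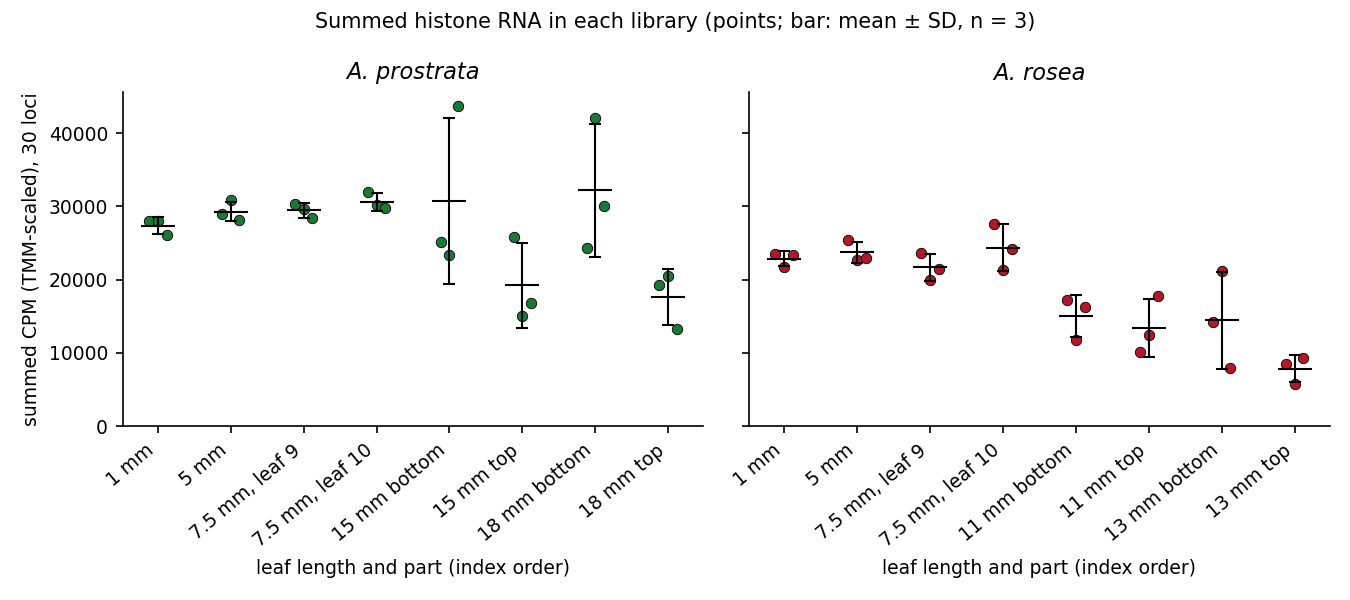
Summed scaled CPM of the 30 loci with a histone family domain (y axis) by leaf length and part in index order (x axis), A. prostrata left and A. rosea right; points are libraries, bars the mean ± SD of 3. The 2 highest points are the A. prostrata 15 mm bottom and 18 mm bottom libraries at 43728 and 42140 CPM, and the lowest group is the A. rosea 13 mm top.

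In A. prostrata no histone locus passed both the p and the fold threshold with leaf age. The question was how the mean of the 18 mm bottom and top compared with the 1 mm leaf. With edgeR's quasi-likelihood test, adjusted for all 14779 loci and with a change called at adjusted p under 0.05 and at least 2-fold, 0 of 29 members were higher and 0 lower, where 15.2% and 8.28% of all loci were. One member was lower at an unadjusted p under 0.05, and DESeq2 also called 0. Here and below, counts at an unadjusted p and by DESeq2 have no share of all loci beside them. They do not set histones apart from other loci. The member log2 fold changes ran from -0.64 to 0.31 with a median of -0.18, beside a median of -0.03 over all loci. The lowest was the H2B locus AT3G09480, at -0.64 (SE 0.22, adjusted p = 0.0122), which was the 1 member lower on the adjusted p alone, as 31.7% of all loci were, and did not reach the fold. The highest was another H2B locus, AT2G37470, at 0.31 (SE 0.30). Against library totals 2 members were called lower, and all 5 positive estimates turned negative, among them AT2G37470 at -0.26, HTA4 at -0.33 and AT4G40030 at -0.47. All 6 H4 loci were between -0.47 and -0.01, the 3 H3.1-type loci between -0.33 and -0.23, and the H3.3-type loci AT4G40030 and AT5G10980 at 0.09 and -0.18. The bottoms and tops lay apart: AT3G27360, an H3.1-type locus, had 1925, 1895 and 1816 CPM at 1 mm, 1625, 2856 and 1997 CPM in the bottoms and 1187, 1242 and 805 CPM in the tops. Its bottoms overlapped the 1 mm leaves and its tops were below them.

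In A. rosea 21 of 29 members fell with leaf age and 0 rose, by edgeR's quasi-likelihood test of the 13 mm bottom and top against the 1 mm leaf, where 10.3% of all loci fell and 15.0% rose. None was higher at an unadjusted p under 0.05, and DESeq2 called 20 lower and 0 higher. On the adjusted p alone 26 members were lower, and 32.5% of all loci. The median member log2 fold change was -1.12, beside -0.07 over all loci, and all 29 estimates were negative. The calls covered 6 of 6 H4 loci, 3 of 3 H3.1-type loci, 3 of 3 H2A.W loci, 2 of 3 H2A.Z loci, 4 of 5 tested H2B loci, 1 of 2 H3.3-type loci, CENH3 and 1 of 3 other H3 loci.

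The 5 called loci with the largest changes came from H3, H4 and H2A.Z. AT3G27360 had 1216, 1250 and 1349 CPM at 1 mm, 657, 1085 and 328 CPM in the 13 mm bottoms and 345, 222 and 391 CPM in the tops. Every bottom and top was below every 1 mm leaf, and its log2 fold change was -1.44 (SE 0.24, adjusted p = 2.1e-06). The H4 locus AT1G07660 had 1895, 1579.9 and 1802 CPM at 1 mm, 808.5, 1599 and 481 CPM in the bottoms and 472, 308 and 627 CPM in the tops. Its bottom replicate 2 reached the level of the 1 mm leaves, and the other bottoms and all tops were below them; it fell by 1.39 on the log2 scale (SE 0.25, adjusted p = 1.11e-05). HTA4, an H2A.Z locus with few reads, was at 6.24, 7.75 and 7.46 CPM at 1 mm and at 1.69, 1.255 and 2.99 CPM in the tops, and its log2 fold change was -1.39 (SE 0.38, adjusted p = 0.00193). Its bottoms were at 2.27, 6.91 and 1.5 CPM, so that 1 of them overlapped the 1 mm leaves. AT1G13370, an H3 locus outside the main types, was at -1.37 on that scale (SE 0.29, adjusted p = 8.82e-05). The H3.1-type locus AT1G09200 was at -1.31 (SE 0.23, adjusted p = 6.83e-06).

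Among the variants, HTR12, the centromeric H3, had 4.04, 3.05 and 3.81 CPM at 1 mm, 1.62, 3.296 and 1.32 CPM in the bottoms and 0.790, 1.37 and 1.11 CPM in the tops of A. rosea. It fell by 1.25 on the log2 scale (SE 0.29, adjusted p = 0.000275), on few reads, with 655 in all 24 libraries of the species. The H2A.W loci HTA7, HTA6 and HTA12 fell by 1.23, 1.16 and 1.12, and the H2A.Z locus HTA8 by 1.09 (adjusted p = 0.000157).

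The 8 tested members that were not called in A. rosea were HTA10, HTA2, HTA9, AT2G37470, AT4G40030, MGH3, AT5G12910 and AT5G50930. HTA10 at -0.96, HTA2 at -0.81, HTA9 at -0.87, AT4G40030 at -0.65 and MGH3 at -0.65 passed the p threshold but not the fold. AT4G40030 had 1719, 1458 and 1483 CPM at 1 mm, 1096, 1357 and 848 CPM in the bottoms and 981, 727 and 948 CPM in the tops. AT5G50930, which has no histone family domain, was at -0.06 (SE 0.26).

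The count of 21 depended on single libraries. Without the 13 mm bottom replicate 3 of A. rosea it was 13, and without the 13 mm top replicate 2 it was 14. The 8 loci lost without the bottom replicate 3 were HTB1, HTB9, HTB11, AT1G07820, HTA6, HTA8, HTA12 and AT5G10980, at log2 fold changes of -0.86 to -0.99, so that the fold threshold and not the p threshold was missed.

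With age, 10 of the 29 members fell further in A. rosea than in A. prostrata, and 0 fell less, by edgeR's test of the difference of the 2 age changes. Of all loci, 6.38% were called lower and 4.51% higher in this comparison. At an unadjusted p under 0.05, 26 members were lower and 0 higher, and DESeq2 called 9 lower and 0 higher. No share of all loci was counted by these 2 rules. On the adjusted p alone 20 members were lower, and 13.8% of all loci. The median member difference was -0.86 on the log2 scale, beside -0.03 over all loci, and all 29 estimates were negative. The called loci were 4 of 6 H4 (AT1G07820, AT3G45930, AT3G53730 and AT5G59690), 2 of 3 H3.1 type (AT1G09200 and AT3G27360), 2 of 3 H2A.Z (HTA4 and HTA8), HTA6 of H2A.W and the H3 locus AT1G13370. No H2B, H3.3-type, CENH3 or replication-dependent H2A locus was called, at differences of -0.65 to -0.86.

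The largest difference, -1.60 (SE 0.53, adjusted p = 0.0227), was that of HTA4, whose A. prostrata levels were 5.80, 7.94 and 6.99 CPM at 1 mm, 6.05, 15.98 and 13.15 CPM in the 18 mm bottoms and 3.11, 9.13 and 4.52 CPM in the tops. The H4 locus AT3G53730 differed by -1.196 (SE 0.38, adjusted p = 0.0166): in A. prostrata it had 266, 265 and 233 CPM at 1 mm and 177, 221 and 128 CPM in the tops, and in A. rosea 503, 405 and 459 CPM at 1 mm and 148, 90.3 and 169 CPM in the tops. At 1 mm its A. rosea libraries were above those of A. prostrata, and in the tops the 2 groups overlapped. The H4 locus AT3G45930 differed by -1.18 (SE 0.37), HTA8 by -1.16 (SE 0.35) and AT3G27360 by -1.14 (SE 0.35).

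**Figure D2:**
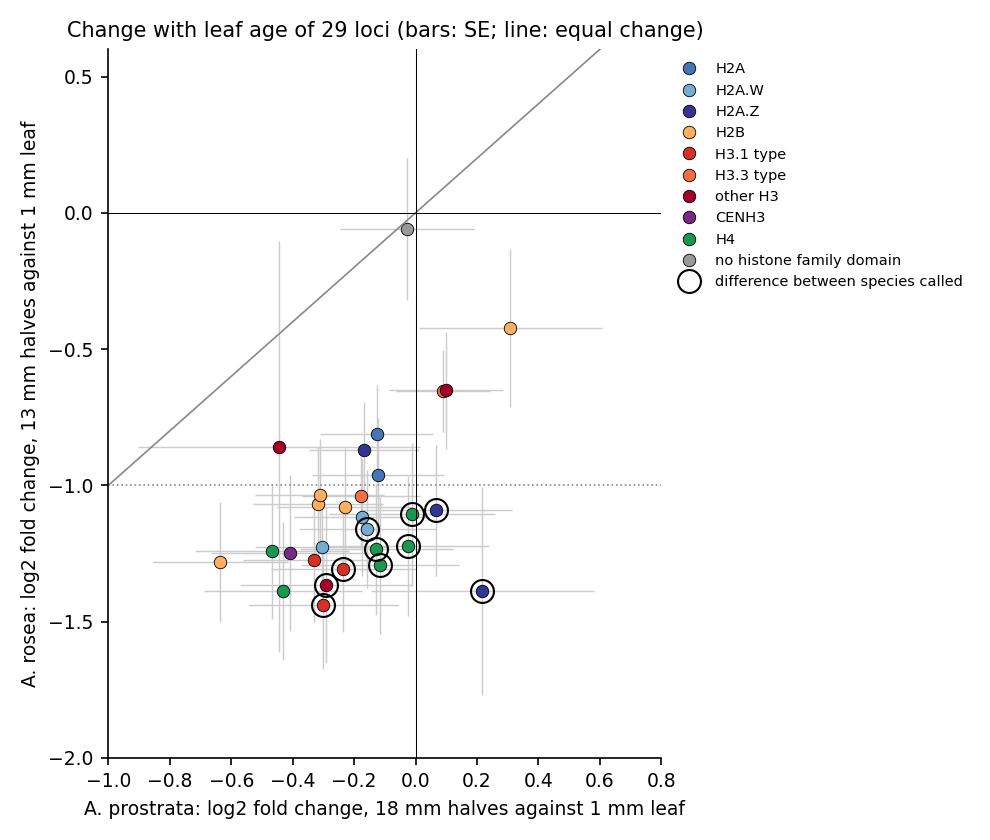
Log2 fold change with leaf age of each of the 29 tested loci in A. prostrata (x axis, 18 mm bottom and top against 1 mm leaf) and in A. rosea (y axis, 13 mm bottom and top against 1 mm leaf), with SE bars, coloured by class; rings mark the 10 loci whose changes differed between the species. All points lie below the line of equal change, from -0.64 to 0.31 along x and from -1.44 to -0.06 along y.

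Leaving out single libraries moved this count from 4 to 19. It was 4 without the A. rosea 13 mm bottom replicate 3 and 19 without replicate 2 of that group. It was 5 without the A. prostrata 18 mm bottom replicate 2 and 6 without the A. prostrata 1 mm replicate 3, the A. prostrata 18 mm top replicate 2 or the A. rosea 13 mm top replicate 2. It was also 5 without both high A. prostrata bottoms, and 8 with replicates 1 and 2 of the 1 mm A. prostrata leaves summed to 1 library, alternatives chosen after the data had been seen. HTA4 lost its call without the A. prostrata 1 mm replicate 1, at -1.49, or the 18 mm top replicate 2, at -1.36. AT3G27360 lost its call without the A. rosea 13 mm bottom replicate 3, at -0.97. AT1G13370 and AT1G07820 lost theirs without replicate 1, 2 or 3 of the 1 mm A. prostrata leaves, and in other such fits. In those 1 mm fits their adjusted p was 0.053 to 0.131 by edgeR's test. HTA6, AT1G09200 and AT5G59690 lost theirs in some fits. AT3G45930, AT3G53730 and HTA8 kept theirs in every such fit.

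Summed reads on the H3.1-type loci and on the H3.3-type loci did not move in step. The ratio of reads on the 3 H3.1-type loci to reads on the 2 H3.3-type loci was 1.26 ± 0.01 at 1 mm and 1.42 ± 0.01 in 7.5 mm leaf 10 of A. prostrata, and 1.19 ± 0.09 and 1.33 ± 0.04 at the same stages of A. rosea. In the oldest tops it was 0.960, 0.965 and 0.834 in A. prostrata and 0.669, 0.607 and 0.756 in A. rosea. The 3 values of each species lay below those of all its whole-leaf libraries, and those of A. rosea below those of A. prostrata. The 13 mm bottoms of A. rosea spread from 0.711 to 1.18, with the lowest value in replicate 3, which also had the least histone RNA of the group. Since lengths were not used, a value of 1 does not mean equal numbers of molecules, and only its course over libraries is described. The ratio does not depend on scaling, and it carries no test. The 2 H3.3-type loci did not move alike. With age AT4G40030 changed by 0.09 in A. prostrata and -0.65 in A. rosea, and AT5G10980 by -0.18 and -1.04. The H3.1-type loci changed by -0.331 to -0.235 and by -1.438 to -1.275. AT5G10980 was thus nearer to them than AT4G40030 was, and the split of reads between these loci is uncertain.

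**Figure D3:**
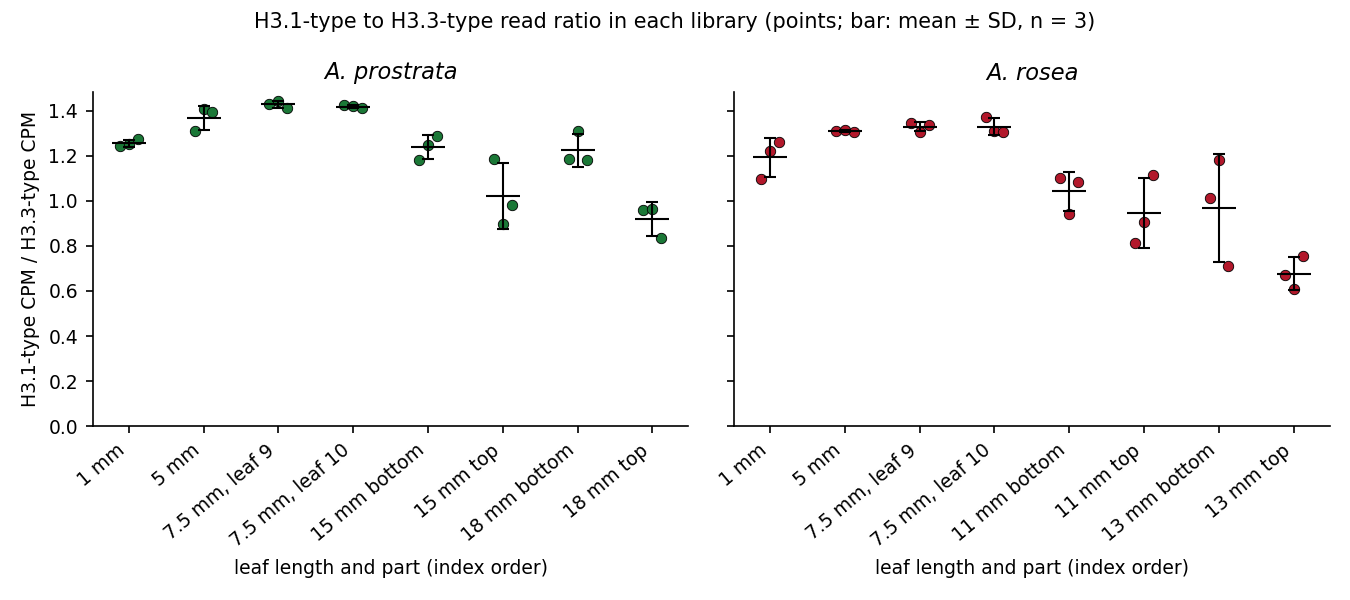
Ratio of summed CPM on the H3.1-type loci to summed CPM on the H3.3-type loci (y axis) by leaf length and part (x axis), A. prostrata left and A. rosea right; points are libraries, bars the mean ± SD of 3. The ratio is at least 1.243 in all whole leaves except 2 A. rosea 1 mm libraries, and runs from 0.607 to 0.756 in A. rosea 13 mm tops.

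At 1 mm the species differed in few histone loci, where 8.49% of all loci were higher and 7.90% lower in A. rosea. By edgeR's test 4 of the 29 members were lower in A. rosea and 0 higher, 1 was higher at an unadjusted p under 0.05, and DESeq2 called 5 lower and 0 higher. On the adjusted p alone 7 were lower and 1 higher, as were 20.8% and 21.3% of all loci. The median member difference was -0.27 and the summed levels were 27374 and 22881 CPM. MGH3 had 40.4, 41.6 and 33.7 CPM in A. prostrata and 10.8, 7.42 and 8.83 CPM in A. rosea, a log2 difference of -2.10 (SE 0.23, adjusted p = 1.67e-09). The H4 locus AT3G46320 had 434, 435 and 402 CPM in A. prostrata and 149, 149 and 156 CPM in A. rosea, a log2 difference of -1.49 (SE 0.30, adjusted p = 0.000106). The groups did not overlap at either locus. The other two were AT5G50930 at -1.32 (SE 0.27) and AT5G12910, an H3 locus with 385 reads in all 48 libraries, at -1.88 (SE 0.61). AT5G12910 lost its call without the A. prostrata 1 mm replicate 1, at -1.56, or the A. rosea 1 mm replicate 2, at -1.41.

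Averaged over the 8 matched stages, 7 of 29 members were lower in A. rosea and 0 higher by edgeR's test, where 10.3% and 9.61% of all loci were. At an unadjusted p under 0.05, 2 members were higher, and DESeq2 called 8 lower and 0 higher. On the adjusted p alone 26 were lower and 2 higher, as were 41.7% and 39.0% of all loci. The 4 loci of the 1 mm comparison were among the 7, and AT1G13370 at -1.45 (SE 0.12), the H3.1-type locus AT3G27360 at -1.08 (SE 0.10) and HTB11, an H2B locus, at -1.07 (SE 0.09) joined them. MGH3 differed by -2.37 (SE 0.09, adjusted p = 3.96e-25), and its 24 A. prostrata libraries, at 18.9 to 61.8 CPM, were all above the 24 of A. rosea, at 4.33 to 10.8 CPM. How many of all loci separate the species this way, here or at single stages, was not counted. How well the reads of each species match a given Arabidopsis locus was not tested. Within the H4 family the difference ran from -1.69 (SE 0.11) at AT3G46320 to 0.25 (SE 0.11) at AT3G53730, a spread of 1.94, while the age change of the 6 loci in A. rosea spread over only 0.28. Summed over the 6 H4 loci, the mean difference over stages was -0.77. Within H2B it ran from -1.07 at HTB11 to 0.52 (SE 0.12) at AT2G37470. Without both high A. prostrata bottoms AT3G27360, at -0.99, and HTB11 lost their calls, both just short of the fold threshold.

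In the tops at index 0.8, 21 of 29 members were lower in A. rosea and 0 higher by edgeR's test, where 13.7% and 11.7% of all loci were. No member was higher at an unadjusted p under 0.05, and DESeq2 called 20 lower and 0 higher. On the adjusted p alone 26 were lower, and 28.5% of all loci. The median member difference was -1.16, beside -0.02 over all loci, and the summed levels were 2.25-fold lower in A. rosea. These tops also enter the age changes above, so the comparisons share libraries. MGH3 had 33.7, 49.8 and 29.1 CPM in A. prostrata and 4.40, 4.33 and 5.13 CPM in A. rosea, a log2 difference of -3.01 (SE 0.25, adjusted p = 1.5e-12). AT3G46320 had 234, 262 and 166 CPM against 48.1, 31.7 and 53.5 CPM, a difference of -2.31 (SE 0.31, adjusted p = 8.04e-08). AT3G27360, at 1187, 1242 and 805 CPM against 345, 222 and 391 CPM, differed by -1.75 (SE 0.29, adjusted p = 3.73e-06). The groups did not overlap at these loci. AT1G13370 differed by -2.09 (SE 0.36) and AT5G12910 by -2.13 (SE 0.82). The 8 members not called included both loci that were higher in A. rosea over stages without reaching the fold, AT3G53730 at -0.36 and AT2G37470 at -0.12. Without the A. prostrata 18 mm top replicate 2 the count was 13, and without the A. rosea 13 mm top replicate 2 it was 15. AT5G12910 lost its call without any of 4 libraries of the 2 groups, at -1.70 to -1.93, and MGH3, AT3G46320, AT1G13370 and AT3G27360 kept theirs.

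**Figure D4:**
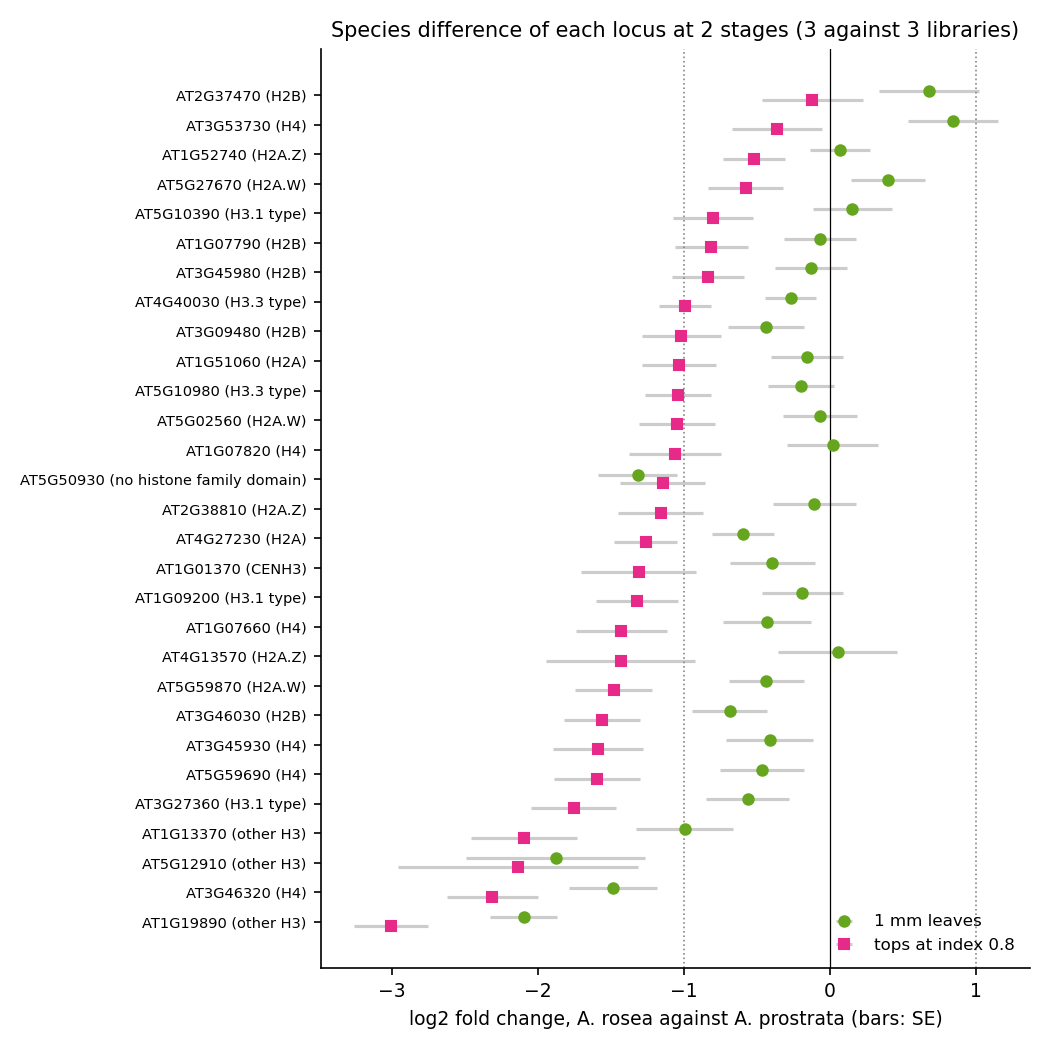
Log2 fold change of A. rosea against A. prostrata (x axis, with SE bars) for each of the 29 tested loci (y axis, class in brackets), in 1 mm leaves (circles) and in tops at index 0.8 (squares), 3 against 3 libraries. The 1 mm values run from -2.10 to 0.84 and those of the tops from -3.01 to -0.12; dotted lines mark the 2-fold threshold.

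Within a leaf, most histone levels were lower in the top part than in the bottom part, and none passed the fold threshold. Averaged over both indexes, the summed histone level was 1.71-fold lower in the top in A. prostrata and 1.44-fold lower in A. rosea. All 29 member estimates in A. prostrata were negative, with a median of -0.80, and 26 of them passed adjusted p under 0.05 in edgeR's test, where 6.75% of all loci were lower by that rule. With the 2-fold threshold 0 of 29 were called lower and 0 higher, where 0.785% and 0.433% of all loci were. At an unadjusted p under 0.05, 27 were lower and 0 higher, and DESeq2 called 0. The H4 loci were at -0.94 to -0.81, the H3.1-type loci at -0.89 to -0.82 and the H3.3-type locus AT4G40030 at -0.38 (SE 0.13). In A. rosea 27 of 29 estimates were negative, with AT5G12910 at 0.21 (SE 0.71) and AT5G50930 at 0.29 (SE 0.23), and the median was -0.56. There 2 members passed adjusted p under 0.05, AT1G09200 at -0.64 (SE 0.20) and HTA7 at -0.62 (SE 0.18), where 2.29% of all loci were lower by that rule. With the fold threshold 0 were lower and 0 higher, where 0.433% and 0.149% of all loci were. At an unadjusted p under 0.05, 23 were lower and 0 higher, and DESeq2 called 0. Whether the species differ in this contrast was not tested.

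The A. prostrata count changes with the near-identical 15 mm libraries. In the 15 mm bottoms AT1G09200 had 2325, 2256 and 4134 CPM and in the tops 2349, 1382 and 1557 CPM, so replicate 1 had about the same level in both parts. Without both parts of replicate 1, an alternative chosen after the data had been seen, the summed level was 1.96-fold lower in the top and 17 members were called lower, among them AT1G07820 at -1.21, HTA4 at -1.25 and HTR12 at -1.03. Leaving out single libraries gave 11 calls without the 15 mm top replicate 1, 7 without the 18 mm bottom replicate 1, and 6 without the 15 mm bottom replicate 1, the 15 mm bottom replicate 2 or the 18 mm top replicate 2. The share of all loci called in these refits is not set beside the counts, so they do not set histones apart from other loci.

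Genes that handle histones and copy DNA give the surroundings of these changes. In A. prostrata 9 of 14 tested DNA synthesis loci fell with age by edgeR's test and 0 rose, where 8.28% of all loci fell. The largest changes were -1.67 (SE 0.18) at ICU2, the catalytic subunit of DNA polymerase alpha, and -1.46 (SE 0.18) at MCM2 and -1.44 (SE 0.16) at MCM5, subunits of the replicative helicase. In A. rosea 11 of the 14 fell, where 10.3% of all loci fell, with -1.78 (SE 0.23) at ORC1A, a subunit of the complex that marks replication origins, and -1.68 (SE 0.18) at MCM2. The difference between the species' age changes was called at 0 of 14 loci by edgeR, where 6.38% of all loci were called lower. At an unadjusted p under 0.05, 3 of the 14 were lower and 0 higher, and the median was -0.16. Summed, the list stood in the oldest bottoms at 67.2% of its 1 mm level in A. prostrata and 55.7% in A. rosea, and in the oldest tops at 38.3% and 39.6%. The histone sum stood at 118% and 63.1% in the bottoms and at 64.6% and 34.4% in the tops. Without the high 18 mm bottom replicate 2, the A. prostrata bottoms were at 99.4% for histones and 69.2% for DNA synthesis. Without the low 13 mm bottom replicate 3, the A. rosea bottoms were at 77.4% and 64.3%.

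Of 17 tested histone chaperones and variant exchange factors, 4 fell in A. prostrata and 5 in A. rosea, and 0 rose in either, beside the same 8.28% and 10.3% of all loci. DDM1, a chromatin remodeller that in Arabidopsis deposits H2A.W, fell by 1.55 and 1.92 on the log2 scale (SE 0.17 in both), and TSK, which in Arabidopsis acts in repair and inheritance at replication forks, by 1.43 and 1.25. FAS2, a subunit of the assembly factor that puts H3.1 onto new DNA, fell by 1.08 in A. prostrata, where FAS1 was at -0.83, and FAS1 fell by 1.29 in A. rosea, where FAS2 was at -0.90. HIRA, the chaperone of H3.3, was at -0.67 and -0.52. The difference between the species was called at 0 of 17 by edgeR, where 6.38% of all loci were called lower. At an unadjusted p under 0.05, 3 of the 17 were lower and 2 higher.

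The mitosis list has 12 loci, of which 6 were tested. CYCB1;2, CYCB2;2, CDKB1;1, CDKB2;1, AUR1 and CDC20.1 were not in the rows used here. Of the 6 tested, 1 fell in A. prostrata and all 6 in A. rosea, where 8.28% and 10.3% of all loci fell. CDKB2;2, a mitotic kinase, fell by 1.199 (SE 0.22) in A. prostrata and by 1.81 (SE 0.22) in A. rosea. The difference was called at 2 of 6 loci, where 6.38% of all loci were called lower. The called loci were CYCB2;1, a B-type cyclin, at -1.40 (SE 0.40) and KNOLLE, the syntaxin of the cell plate, at -1.32 (SE 0.37). In the tops at index 0.8 all 6 were lower in A. rosea, where 13.7% of all loci were. There 1 of 14 DNA synthesis loci (ORC1A) and 1 of 17 chaperones (DDM1) were lower, shares below that of all loci. Of the marker lists, 4 of 5 tested stomatal lineage loci and 2 of 2 leaf markers were also lower in these tops. Of 6 tested shoot meristem and organ boundary loci, 1 was lower and 1 higher. The lists were not tested against each other.

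**Figure D5:**
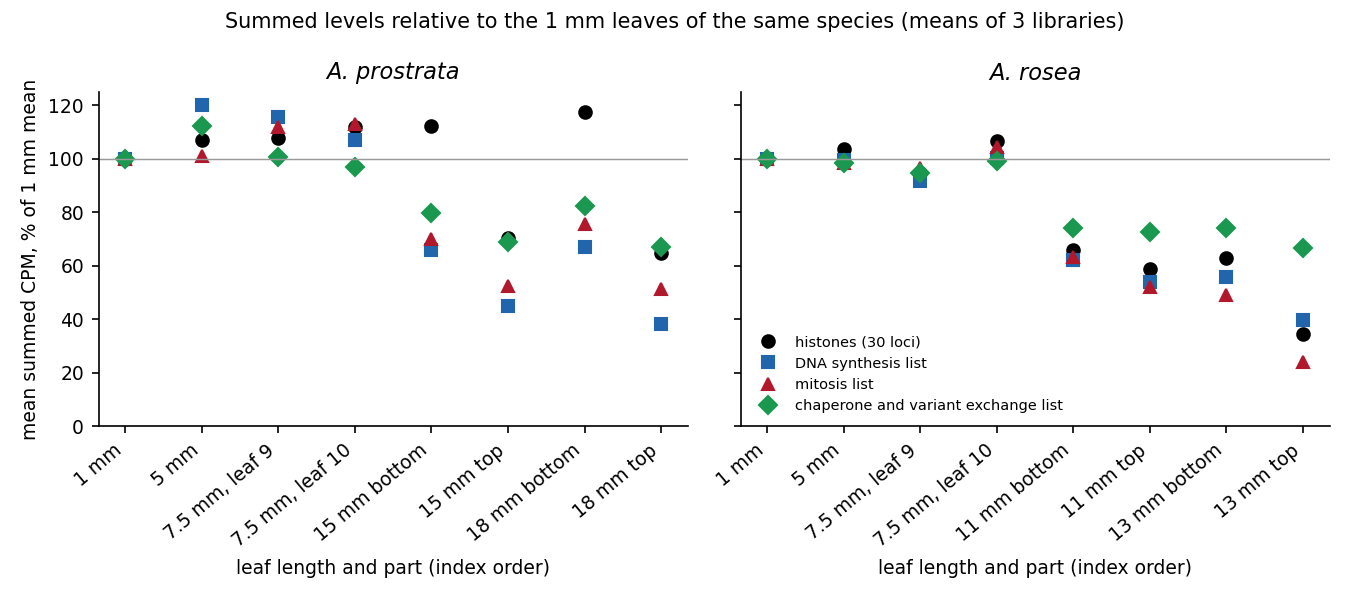
Mean summed CPM of 3 libraries as a percentage of the 1 mm mean of the same species (y axis) by leaf length and part (x axis), for the 30 histone loci and the lists of DNA synthesis, mitosis, and chaperone and variant exchange genes. In A. prostrata 18 mm bottoms histones stand at 118% and DNA synthesis at 67.2%, and in A. rosea 13 mm bottoms at 63.1% and 55.7%.

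Markers of other cells moved with leaf age. Of all loci, 8.28% fell in A. prostrata and 10.3% in A. rosea, and 15.2% and 15.0% rose. Of 9 shoot meristem and organ boundary markers 8 were in the table, 6 were tested, and all 6 fell in both species. Their summed level was 82.0 to 89.8 CPM in 1 mm A. prostrata leaves and 54.9 to 75.1 CPM in 1 mm A. rosea leaves, against at most 21.7 and 6.13 CPM in the later libraries. STM, which defines the meristem, had 1002 and 943 reads in the 1 mm groups of A. prostrata and A. rosea and at most 1 in each group of 18 mm and 13 mm bottoms and tops, CLV3 had 0 reads in every library, and WUS had 19 reads in all. Of 6 stomatal lineage markers 5 were tested, and BASL had 0 reads. With age, 4 of the 5 rose in A. prostrata, and in A. rosea 0 rose and 3 fell. Their summed level was 28.5 to 30.4 CPM at 1 mm, 68.7 to 86.4 CPM in 18 mm bottoms and 44.3 to 81.3 CPM in 18 mm tops of A. prostrata. In A. rosea it was 26.0 to 31.01 CPM at 1 mm, 19.0 to 50.6 CPM in 13 mm bottoms and 15.7 to 23.1 CPM in 13 mm tops. Replicate 3 of the 13 mm bottoms had the lowest value of its group for histones, mitosis and stomatal markers, at 7885, 101 and 19.0 CPM. It was also the lowest for DNA synthesis, chaperones and meristem markers, at 1038, 1179.5 and 2.117 CPM. For the leaf markers it was the highest, at 24300 CPM. The part of these cell types in the histone results was not tested.

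Outside the description rule, 3 further histone loci did not reach the fold threshold. They are AT5G22880, described as histone B2, AT5G65350, described as histone 3 11, and AT1G06760, a linker histone locus described as a winged-helix protein. Their log2 changes with age were -0.22, -0.49 and -0.57 in A. prostrata and -0.94, -0.86 and -0.81 in A. rosea, and edgeR called 0 of 3 in either species at the fold threshold. At an unadjusted p under 0.05, 2 of 3 were lower in A. prostrata and 3 of 3 in A. rosea. Other Arabidopsis histone loci were not in the rows used here. Among them were HTR1 and HTR9 of H3.1 type, HTR5 of H3.3 type, and the H2A loci HTA1 and HTA13. The sums and the H3.1 to H3.3 ratio rest on the loci that were present.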

How the data were processed

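The authors deposited 1 table of raw read counts per Arabidopsis locus, unnormalized by its values; the submitters' processing notes name CASAVA, TAIR10 and DESeq2 without saying which step each served. Per the labels' protocols, TruSeq libraries were sequenced 12 a lane as single-end 100 bp or paired-end reads of 100 or 150 bp. Of 60 count columns, 48 were mapped to 16 groups of 3 and 12 per-sample columns were not used; leaf 9 columns were matched by group, with no replicate number. F1 samples and index 1.5 samples were not analysed here. Of 21976 rows, 5 whose values had moved out of their columns were left out.

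Counts were filtered with filterByExpr, scaled by TMM and fitted in edgeR 4.0.16 (R 4.3.3, limma 3.58.1) with 1 mean for each group of all 48 libraries. The quasi-likelihood F test gave p-values, adjusted by Benjamini-Hochberg over 14779 loci; a call needs adjusted p under 0.05 and a log2 change of at least 1. This fit has no term for plant or replicate, so bottoms and tops of the same number count as independent libraries in its SE and p-values. SE was taken as |log2 change| / √F. The biological coefficient of variation was 15.7%. The procedure was tested on simulated data. DESeq2 1.42.0, other scalings and filters, a replicate block and leaving out each library in turn were alternatives. Plants were sampled in biological triplicate, per the labels.

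Members and lists were chosen with earlier results of these data known. The loci given in full were up to 3 of highest mean level per class and up to 5 called with the largest changes per comparison and direction, and companion loci were up to 4 called per comparison; others, such as HIRA, were named for their role or after their values were seen. Companion names follow Arabidopsis locus identifiers.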

Additional observations from a re-analysis of the deposited data

Results flagged for a closer look

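The age change differed between the species, by edgeR's test of the interaction, at 10 histone loci and at 9 loci of the companion and marker lists. The differences, A. rosea minus A. prostrata on the log2 scale, were -1.605 at HTA4 (AT4G13570) and -1.159 at HTA8 (AT2G38810), both H2A.Z, and -1.006 at HTA6 (AT5G59870), an H2A.W. Among H3 loci they were -1.137 at AT3G27360, -1.076 at AT1G13370 and -1.073 at AT1G09200. The H4 loci differed by -1.196 at AT3G53730, -1.179 at AT3G45930, -1.107 at AT5G59690 and -1.096 at AT1G07820. Of these histone loci only AT3G45930, AT3G53730 and HTA8 kept the call whichever single library was left out.

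Among companions, the mitosis loci CYCB2;1 and KNOLLE differed by -1.398 and -1.323. The stomatal lineage loci EPF2, MUTE, TMM (a receptor-like protein of that lineage) and FAMA differed by -4.888, -3.938, -2.671 and -1.064. The meristem loci KNAT1 and KNAT6 differed in opposite directions, by -4.467 and 4.598, and KNAT6 was the only one of the lists called higher. For EPF2, KNAT1 and KNAT6 the fitted values depend on a group with at most 1 read: EPF2 had 0 and KNAT1 had 1 in the A. rosea 13 mm tops, and KNAT6 had 0 in the A. prostrata 18 mm tops. RBCS1A differed by -2.059, having risen in both species. Groups of 3 libraries were too small for a search for single outlying values.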

How the results depend on the processing

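No called value changed sign under any alternative run. With library totals 5 uncalled age changes in A. prostrata, 1 uncalled species difference over stages and 2 at 1 mm did. With adjusted p alone and no fold threshold, members lower were 1 for age in A. prostrata, 20 for the difference of the age changes, 26 for the species over stages (2 higher), 7 at 1 mm (1 higher), 26 for the parts of A. prostrata and 2 for those of A. rosea. With library totals, 2 were lower for age in A. prostrata and 7 for its parts. Of alternatives chosen after the data had been seen, leaving out both high A. prostrata bottoms gave 5 for the difference, and leaving out both parts of the 15 mm replicate 1 gave 17 for the A. prostrata parts. Leaving out each library in turn gave 0 to 0 for age in A. prostrata, 13 to 22 in A. rosea, 4 to 19 for the difference, 7 to 8 over stages, 3 to 5 at 1 mm, 13 to 23 in tops, 0 to 11 for the parts of A. prostrata and 0 to 0 for those of A. rosea. Same-numbered bottoms and tops correlated at 0.201, 0.313 and 0.384 in A. prostrata at index 0.8, each the best match of its number. At index 0.3 they correlated at 0.405, 0.0551 and -0.0376 in A. prostrata and at 0.259, 0.0475 and 0.0224 in A. rosea, and at index 0.8 in A. rosea at -0.101, -0.441 and -0.24. Replicate 1 was also the best match of its number at index 0.3 in both species, and the other same-numbered parts were not. In A. prostrata that is the near-identical 15 mm pair. Only in the 18 mm leaves of A. prostrata did every same-numbered part match best. Deviations from means of 3 libraries cannot show whether the parts of any leaf are paired. With a replicate block, 21 were lower for age in A. rosea, 7 for the difference, 10 over stages, 4 at 1 mm, 17 in tops and 0 for age and parts in A. prostrata. Counts in these alternative fits are of members only, with no share of all loci beside them. The causes were not tested.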
